A study of Mus musculus with 8 samples.

Results

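Cadherins and protocadherins are transmembrane proteins through which a cell recognises and holds on to its neighbours, and they were examined here in neural stem cells (NSCs) 7 days after X-ray irradiation (irr). Genes were taken as members where a probe set carried 1 annotated symbol that begins with Cdh and a digit or with Pcdh, and the probe set with the highest mean over all 8 arrays stood for each gene. This gave 56 members, 21 cadherins and 35 protocadherins, among 18193 genes with such a probe set. The cells were NSCs derived from mouse embryonic stem (ES) cells and grown in Euromed-N medium with N2 supplement, EGF and FGF2. RNA came from 4 cultures labelled as not irradiated (non-irr NSCs) and from 4 cultures that received 10 Gy from a Faxitron device and were extracted on day 7 (irr NSCs). According to the methods most NSCs of the study came from the E14Tg2a ES cell background, while the line used for the arrays and the time in culture of the non-irr NSCs are not given in the sources used here. The irr cultures were not passaged after irr, so that irr and the state of the culture cannot be told apart. The irr experiments were done as a quadruplicate, but the labels do not say how separate the cultures were, and p-values measure the spread between these 4 and 4 arrays.

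Cadherins bind in a calcium-dependent way, mostly to the same cadherin on the next cell, and the classical type I and type II cadherins are tied to actin inside the cell by catenins. N-cadherin, encoded by Cdh2, is the main classical cadherin of the junctions between NSCs in the neuroepithelium. Protocadherins are the largest branch of the family and are most diverse in the brain. The clustered ones lie in alpha, beta and gamma clusters, from which each neuron uses its own combination of isoforms, and the non-clustered delta protocadherins are expressed in restricted regions and cell groups. The classical cadherins are therefore described apart from the protocadherins.

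Expression was measured on Affymetrix GeneChip mouse arrays as log2 values normalized by RMA. A member was tested where at least 1 array exceeded an intensity of 100, which is 6.64 on the log2 scale. Called members had an adjusted p under 0.05 from limma, and every difference below is the log2 value of irr minus non-irr NSCs with its standard error (SE), n = 4 arrays per group. Values of different probe sets are not on a common scale, so that levels are compared between groups and not between genes. Correlations were 0.996 to 0.998 within a group and 0.972 to 0.976 between the groups. The 3′ minus 5′ difference of the actin control probe sets was 0.26 ± 0.03 (SD, n = 4) in non-irr and 0.51 ± 0.07 in irr NSCs (two-sided p = 0.0286 by exact permutation, where 4 against 4 arrays allow no smaller p), and that of Gapdh was -0.08 and -0.06 (exact permutation p = 0.714, n = 4 per group). The part of this difference in the results was not tested. Component 2 of a principal component analysis, with 3.68% of the variance, set irr replicates 1 and 2 (-19.1 and -7.2) apart from 3 and 4 (12.0 and 14.4). It also set non-irr replicates 2 and 3 (-8.0 and -6.2) apart from 1 and 4 (2.1 and 12.1). The split of the irr arrays is named below for members such as Cdh20, Pcdh7, Pcdh17 and Pcdhb16.

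More members rose than fell in irr NSCs, and the difference lay mostly in the protocadherins. Of the 56 members, 32 were tested and 24 stayed below the filter on all 8 arrays. Among those tested, 22 were higher, 5 were lower and 5 were not called, while 40.2% of the 11364 genes tested on the array were called higher and 37.1% lower. A fitted change of at least 2-fold upwards was found in 8 members (8.88% of the genes tested) and downwards in 0 (6.16% of the genes tested), the largest decrease being -0.58 for Pcdh7. The 8 include Pcdhb3 and Pcdhb11, which were below the filter on all non-irr arrays, so that their fitted differences are of uncertain size, and for Pcdhb11 a 2-fold increase is not shown. The 4 and 4 arrays did not overlap for 24 of the 32 members tested, against 73.4% of the genes tested. Of the members tested, 7 exceeded the filter in 1 group only, 6 of them protocadherins, so a member could enter the test through the group in which it was high. In a fit without the filter 26 of all 56 members were higher and 4 lower, against 26.6% and 28.9% of all genes. The median log2 difference of all members was 0.20, that of the cadherins 0.04 and that of the protocadherins 0.49, against -0.06 for all genes in the fit without the filter. In RNA of whole cultures, fewer cells of a type and less RNA per cell cannot be told apart.

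The cadherins went both ways and mostly by little. Of 21, 9 were tested, of which 4 were higher, 2 lower and 3 not called, against 40.2% higher and 37.1% lower of all genes tested. The largest difference belonged to Cdh13. Cdh13 (T-cadherin) lacks the transmembrane and cytoplasmic parts of a classical cadherin and is held in the membrane by a lipid anchor. Its values were 9.93, 9.75, 9.81 and 9.93 in non-irr and 12.27, 12.38, 12.46 and 12.43 in irr NSCs. Every irr array was far above every non-irr array, and the mean rose by 2.53 (SE 0.06), which is 5.77-fold (limma adjusted p = 8.5e-10). The 3 probe sets of Cdh13 past the filter rose by 2.28 to 2.69, while its remaining probe set was below the filter in both groups, at 3.82 and 3.92. Cdh13 was the only cadherin of the 21 called at 2-fold or more in this fit.

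**Figure D1:**
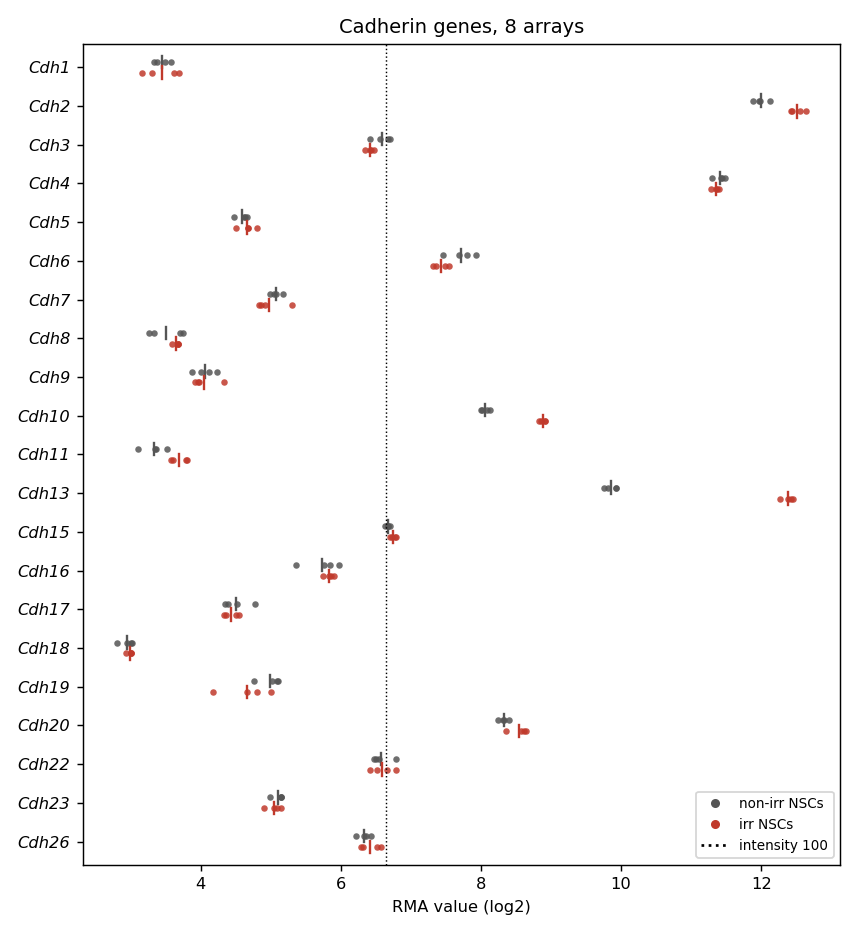
RMA values (log2, horizontal axis) of the 21 cadherins on 4 arrays of non-irr NSCs (grey) and 4 of irr NSCs (red), with points for arrays, short bars for group means and a dotted line at an intensity of 100. Cdh13 moved from 9.86 to 12.38, Cdh2 and Cdh10 by less, and 12 genes lay left of the dotted line on all arrays.

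Among the type I cadherins, Cdh2 was higher. Its values were 11.97, 11.99, 11.89 and 12.12 in non-irr and 12.64, 12.55, 12.42 and 12.44 in irr NSCs, without overlap, a difference of 0.52 (SE 0.07, 1.43-fold, limma adjusted p = 5.7e-05). A second probe set of Cdh2 rose by 0.74. Cdh4 (R-cadherin), a close relative of N-cadherin, was at 11.41 and 11.35, a difference of -0.06 (SE 0.05) that was not called (limma adjusted p = 0.30). Its other probe set past the filter was lower by -0.40 (SE 0.12, limma adjusted p = 0.011), so that the probe sets of Cdh4 gave different calls. With the mean of its probe sets, Cdh4 was called lower, at -0.20 (limma adjusted p = 0.011). Cdh3 (P-cadherin, known from epithelia) was lower by -0.17 (SE 0.07, limma adjusted p = 0.036) and stood near the filter, with all 4 irr arrays below it. Cdh15 (M-cadherin of muscle) was at 6.67 and 6.75 and was not called. Cdh1, the E-cadherin of epithelia, was below the filter on all 8 arrays, at 3.16 to 3.69.

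Of the 11 type II cadherins 4 were tested. Cdh10 was at 8.0, 8.02, 8.13 and 8.09 in non-irr and at 8.86, 8.92, 8.83 and 8.91 in irr NSCs. The groups lay well apart, and the mean rose by 0.82 (SE 0.05, 1.77-fold, limma adjusted p = 1.8e-07). Cdh20 was higher by 0.22 (SE 0.07, limma adjusted p = 0.014) with overlapping groups, since irr replicate 1 stood at 8.36 and non-irr replicate 2 at 8.40. Without irr replicates 3 and 4 this was 0.14 and was no longer called (limma adjusted p = 0.14). Cdh6 (K-cadherin) was lower by -0.29 (SE 0.10, limma adjusted p = 0.021), and its other probe set by -0.32 (SE 0.06, limma adjusted p = 0.0011). The call of Cdh6 on its brightest probe set was lost when non-irr replicate 2 or 3 or irr replicate 2 or 3 was left out, with adjusted p of 0.053 to 0.058 from limma. Cdh3 lost its call without any single array other than non-irr replicate 3 and irr replicate 2, where it kept it. Cdh22 was not called. The endothelial Cdh5 and Cdh11, a cadherin of mesenchymal cells, were below the filter on all arrays, as were Cdh7, Cdh8, Cdh9, Cdh18 and Cdh19.

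The other cadherins of the rule are a mixed group with no shared function. Apart from Cdh13, all of them (Cdh16, Cdh17, Cdh23 and Cdh26) were below the filter on all 8 arrays. Cdh16 and Cdh17 are known from kidney and gut epithelium, and Cdh23 forms the tip links of hair cells of the inner ear.

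The catenins are the cytoplasmic partners of the classical cadherins. Of 13 listed catenins and linkers to actin 12 were tested, and 8 were higher and 4 lower, with a median of 0.23 over the 13, against 40.2% higher, 37.1% lower and a median of 0.01 over all genes tested. The largest increases were of Ctnnd2 (delta-catenin, known from neurons), by 1.11 (SE 0.06, limma adjusted p = 8.5e-08), and of Ctnna2 (alpha-N-catenin). Ctnna2 was below the filter on all non-irr arrays and at 7.10 in irr NSCs, at least 1.37-fold higher (limma adjusted p = 1.5e-06). A fold stated as "at least" sets the irr mean against the filter, since a value below the filter has an uncertain size. The catenins found in most cells rose by less. Ctnnb1 (beta-catenin) rose by 0.23, Ctnna1 by 0.21, Ctnnd1 (p120-catenin) by 0.28 and Jup (plakoglobin) by 0.33, with limma adjusted p of 0.00018 to 0.0021. Vcl (vinculin) rose by 0.46 and Ctnnal1 by 0.51. Pkp4 was lower by -0.42, Lima1 by -0.22, Afdn (afadin) by -0.17 and Arvcf by -0.15. With arrays centred on 7 reference genes, which moved the median of all genes tested by 0.12, Lima1, Afdn and Arvcf were no longer called. Of the 7 reference genes 2 were higher and 3 lower. The largest changes among them were those of Pgk1 (-0.66) and Hprt (-0.38, below the filter on all irr arrays), and the centring includes them. As means over all probe sets of a gene, Ctnnb1 was at 0.35, Vcl at 0.26, Pkp4 at -0.69 and Lima1 at -0.39, and Lima1 was at -0.77 with plain probe sets only. Ctnna3 was below the filter.

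**Figure D2:**
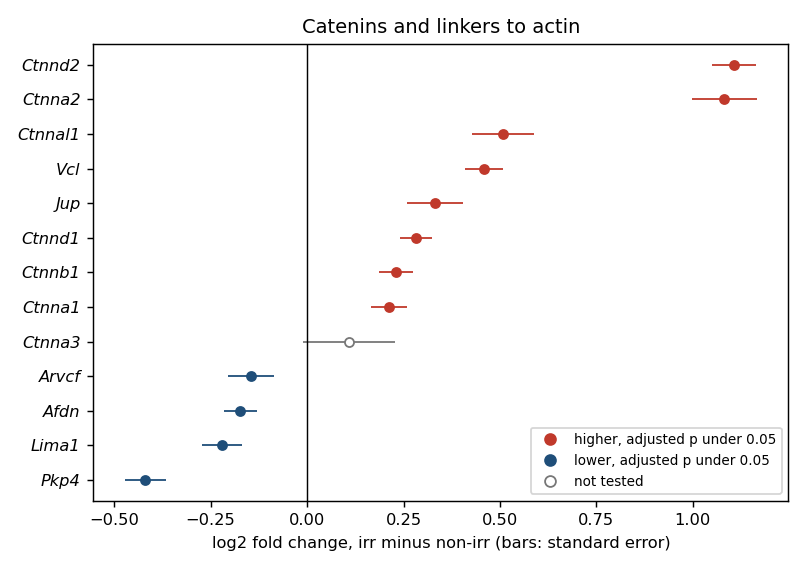
Log2 difference of irr minus non-irr NSCs (horizontal axis) of 13 catenins and linkers to actin, with bars for the standard error of the limma fit on 4 and 4 arrays. The 8 genes in red were higher, by 0.21 to 1.11, the 4 in blue were lower, by -0.15 to -0.42, and Ctnna3 was not tested.

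The protocadherins moved mostly upwards. Of 35, 23 were tested, with 18 higher, 3 lower and 2 not called, against 40.2% higher and 37.1% lower of all genes tested. Of the 23, 7 rose by at least 2-fold on the fitted scale, against 8.88% of all genes tested. Most of them belong to the beta cluster, whose genes have a single exon each and lie side by side. The annotation holds 22 beta genes, and RefSeq places them in the order of their numbers. Of these, 14 were tested, with 12 higher, 0 lower and 2 not called, beside the same shares of all genes tested. Of the 14, 4 (Pcdhb3, Pcdhb5, Pcdhb8 and Pcdhb11) passed the filter only through irr arrays. At an unadjusted p under 0.05 from limma the 14 also gave 12 higher and 0 lower. Without the filter limma called 14 of the 22 higher and 0 lower, against 26.6% and 28.9% of all genes. The groups of arrays did not overlap for 12 of the 14 tested, against 73.4% of all genes tested. They did not overlap for 13 of the 22, against 53.8% of all 18193 genes without the filter. The median difference of all 22 was 0.50.

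The largest differences in the beta cluster were those of Pcdhb3, Pcdhb9, Pcdhb7 and Pcdhb17. Pcdhb3 was at 6.09, 5.58, 6.22 and 6.02 in non-irr NSCs and at 8.90, 8.81, 8.79 and 8.97 in irr NSCs. It was below the filter on all non-irr arrays, and the irr mean of 8.87 was at least 4.68-fold higher (fitted difference 2.89, SE 0.12, limma adjusted p = 2.1e-08). Pcdhb9 was at 6.95, 7.02, 7.21 and 7.01 and then at 9.51, 9.83, 9.73 and 9.69. The lowest irr array was thus above the highest non-irr array by far, and the mean rose by 2.64 (SE 0.08), which is 6.24-fold (limma adjusted p = 2.3e-09).

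Pcdhb7 was at 6.82, 6.72, 6.76 and 6.78 in non-irr and at 9.37, 9.24, 9.11 and 9.06 in irr NSCs. Its groups were tight and far apart, with an increase of 2.42 (SE 0.07, 5.36-fold, limma adjusted p = 1.7e-09). Pcdhb17 was at 6.91, 7.18, 7.21 and 7.03 and then at 9.01, 9.11, 8.77 and 8.81. It rose without overlap by 1.84 (SE 0.09, 3.58-fold, limma adjusted p = 7.6e-08). These genes are not neighbours of each other, as places between them are held by genes that changed less or were below the filter.

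Pcdhb11 was at 6.24, 6.41, 6.29 and 6.10 in non-irr and at 7.14, 7.17, 7.32 and 7.42 in irr NSCs. It did not overlap between groups, but all non-irr arrays were below the filter, and its fitted difference of 1.00 (SE 0.08, limma adjusted p = 2.2e-06) is of uncertain size, with irr NSCs at least 1.53-fold higher. Pcdhb10 was at 8.76, 8.76, 8.69 and 8.80 and then at 9.47, 9.51, 9.57 and 9.48, a smaller increase of 0.76 (SE 0.05, limma adjusted p = 2.5e-07), again without overlap.

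The remaining beta genes that rose did so by 0.31 (Pcdhb19) to 0.92 (Pcdhb5). Pcdhb8 rose by 0.77, Pcdhb16 by 0.74, Pcdhb15 by 0.70 and Pcdhb20 by 0.50. Pcdhb5 and Pcdhb8 were below the filter on all non-irr arrays and at least 1.22-fold and 1.20-fold higher in irr NSCs. Pcdhb15 exceeded the filter on 1 of 4 non-irr arrays, with a non-irr mean of 6.61, so that its difference is of uncertain size. The probe set of Pcdhb15 is of a kind that may read related transcripts as well. Pcdhb16 varied most among the irr arrays of the beta genes that rose, from 8.86 to 9.59, and its second probe set past the filter rose by 0.92. Its irr replicates 1 and 2 were above 3 and 4, with means of 9.421 and 8.935. Under the alternative settings given below its difference lay between 0.49 and 0.98, and it kept its call.

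Pcdhb21 was spread widely in irr NSCs, at 7.61, 6.94, 6.68 and 6.88 against 7.02, 7.19, 7.17 and 6.89. It was not called (-0.04, SE 0.17), and without irr replicate 1 it was called lower, at -0.23 (limma adjusted p = 0.044). The other probe set of Pcdhb21 went the other way, from 5.87 to 6.32, but it was below the filter on all arrays. Pcdhb22 was not called at -0.01. The 8 beta genes below the filter on all arrays were Pcdhb1, Pcdhb2, Pcdhb4, Pcdhb6, Pcdhb12, Pcdhb13, Pcdhb14 and Pcdhb18. Their fitted differences lay between -0.11 for Pcdhb1 and 0.49 for Pcdhb4, values that are of uncertain size at such intensities.

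**Figure D3:**
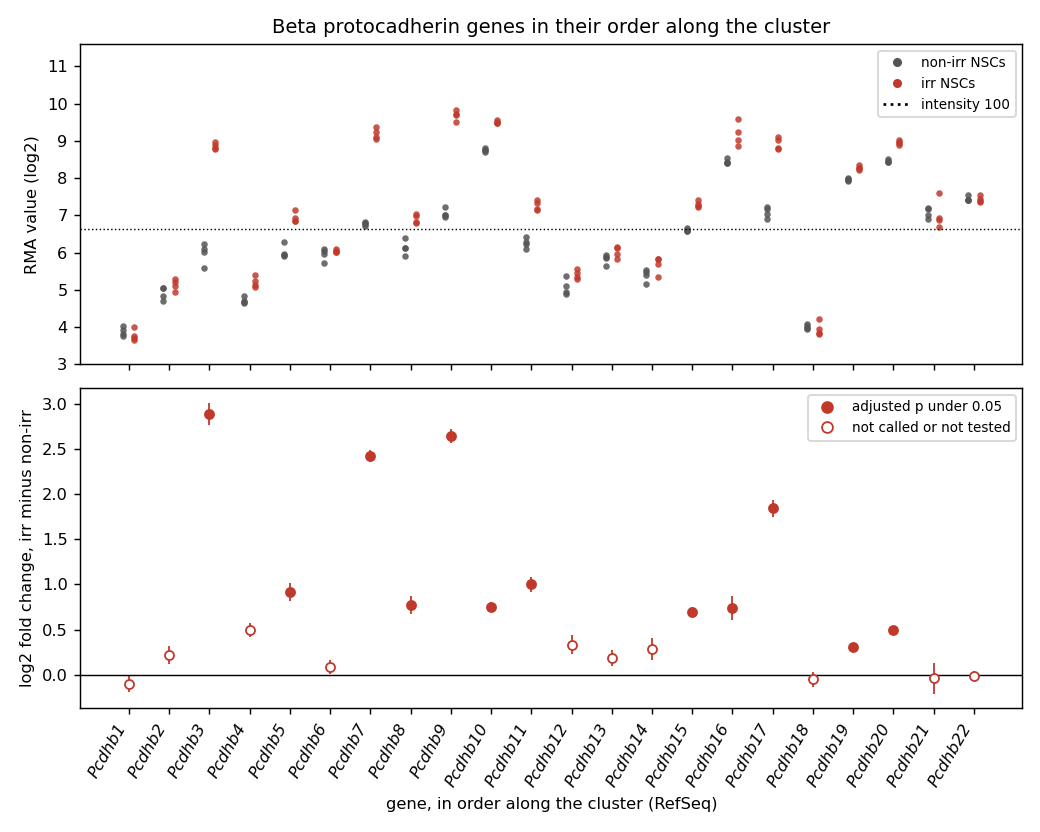
The 22 beta protocadherins in their order along the cluster (horizontal axis, by RefSeq), with RMA values (log2) of 4 non-irr (grey) and 4 irr (red) arrays above and the log2 difference with its standard error below, filled where called. Pcdhb3, Pcdhb7, Pcdhb9 and Pcdhb17 rose by 1.84 to 2.89, with genes that changed less or were below the filter between them.

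The gamma cluster entered the rule with Pcdhgc4, a constitutive type isoform. Its values were 5.78, 5.85, 6.13 and 5.87 in non-irr and 6.63, 6.67, 6.61 and 6.51 in irr NSCs. The groups did not overlap and it was called higher (limma adjusted p = 1.8e-05), yet only irr replicate 2 exceeded the filter, so that no fold is given. The alpha cluster had no member, because its transcripts share constant exons and its 6 probe sets list several symbols. Of these 6, 2 passed the filter, each with 14 symbols. They rose by 0.63 (SE 0.05, limma adjusted p = 2e-06) and by 0.55 (SE 0.12, limma adjusted p = 0.0024), and which of the alpha isoforms they measured cannot be told from the array.

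The non-clustered protocadherins divided into genes that rose and genes that fell. Of 12, 8 were tested, with 5 higher and 3 lower, against 40.2% higher and 37.1% lower of all genes tested. In the delta-1 group, named for conserved cytoplasmic motifs, Pcdh9 rose most. It was at 8.40, 8.56, 8.55 and 8.35 in non-irr and at 10.40, 10.27, 10.04 and 10.23 in irr NSCs. The groups did not overlap, and the increase was 1.77 (SE 0.08, 3.41-fold, limma adjusted p = 3.8e-08). A second probe set of Pcdh9 past the filter rose by 0.71 (SE 0.21, limma adjusted p = 0.011) and the remaining probe set was below the filter, so that the mean over its probe sets rose by 0.84. Pcdh11x, which lies on the X chromosome, rose by 0.93 (SE 0.11, limma adjusted p = 2.9e-05), while its second probe set was at 0.25 and not called (limma adjusted p = 0.11), and it rose by 0.59 as the mean of its probe sets. Pcdh7 fell by 0.58 (SE 0.14, limma adjusted p = 0.0041), and its other probe set past the filter fell by 0.99. Its irr replicates 1 and 2 were above 3 and 4, and without irr replicates 3 and 4 the decrease on the brightest probe set was -0.39 (limma adjusted p = 0.031). Pcdh1 was below the filter.

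In the delta-2 group all 5 members were tested, with 3 higher and 2 lower. Pcdh19, a gene mutated in an epilepsy of girls, was at 9.55, 9.61, 9.58 and 9.48 in non-irr and at 11.35, 11.25, 11.04 and 11.20 in irr NSCs. It rose without overlap by 1.66 (SE 0.07, 3.15-fold, limma adjusted p = 1.8e-08), and its other probe sets past the filter rose by 1.08 and 1.62. Pcdh17 rose by 0.57 (SE 0.17, limma adjusted p = 0.011). Its irr arrays were at 10.50, 10.19, 9.70 and 9.77 above non-irr arrays of 9.34, 9.60, 9.61 and 9.32, and the increase was 0.88 without irr replicates 3 and 4 and 0.27 without irr replicates 1 and 2. Pcdh8 was called higher (limma adjusted p = 8.2e-06), but it exceeded the filter on 1 irr array and on no non-irr array, so that no fold is given. The probe set of Pcdh8, like that of Pcdhb15, is of a kind that may read related transcripts as well.

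Pcdh10 and Pcdh18 fell. Pcdh10 was at 7.75, 7.65, 8.05 and 7.76 in non-irr and at 7.37, 7.33, 7.44 and 7.18 in irr NSCs. Its groups did not overlap, and it fell by 0.47 (SE 0.09, limma adjusted p = 0.00091), with 4 probe sets past the filter between -0.84 and -0.47. Pcdh18 was at 8.43, 8.54, 8.45 and 8.51 and then at 8.02, 7.88, 7.86 and 7.94, without overlap. It fell by 0.56 (SE 0.05, limma adjusted p = 5e-06), and a second probe set past the filter fell by 0.94. None of the members with several probe sets past the filter, 12 in all, had probe sets that went in opposite directions. Pcdh12, Pcdh15 and Pcdh20 were below the filter on all arrays.

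**Figure D4:**
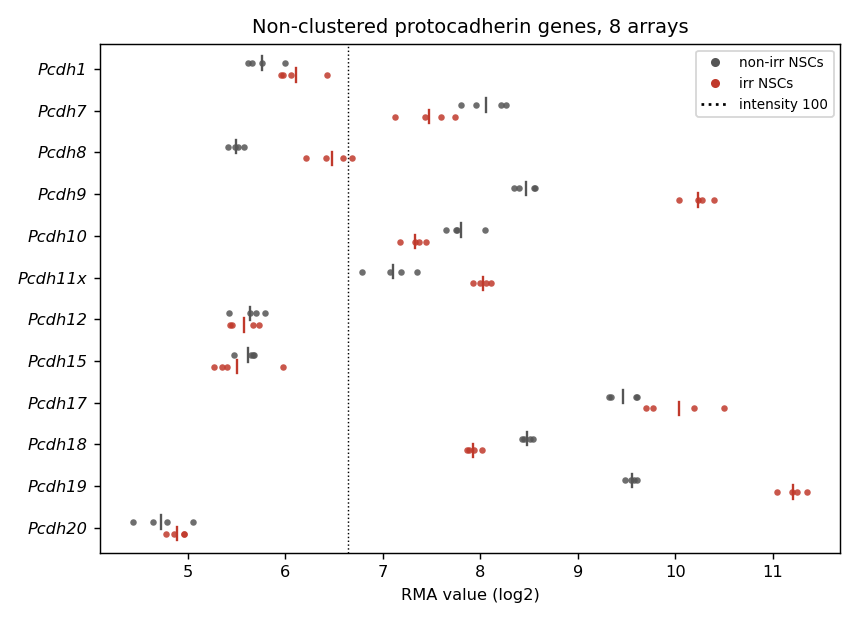
RMA values (log2, horizontal axis) of the 12 non-clustered protocadherins on 4 arrays of non-irr (grey) and 4 of irr NSCs (red), with group means as short bars and a dotted line at an intensity of 100. Pcdh9 and Pcdh19 lie furthest to the right of their non-irr arrays, by 1.77 and 1.66, and Pcdh7, Pcdh10 and Pcdh18 lie to the left.

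**Figure D5:**
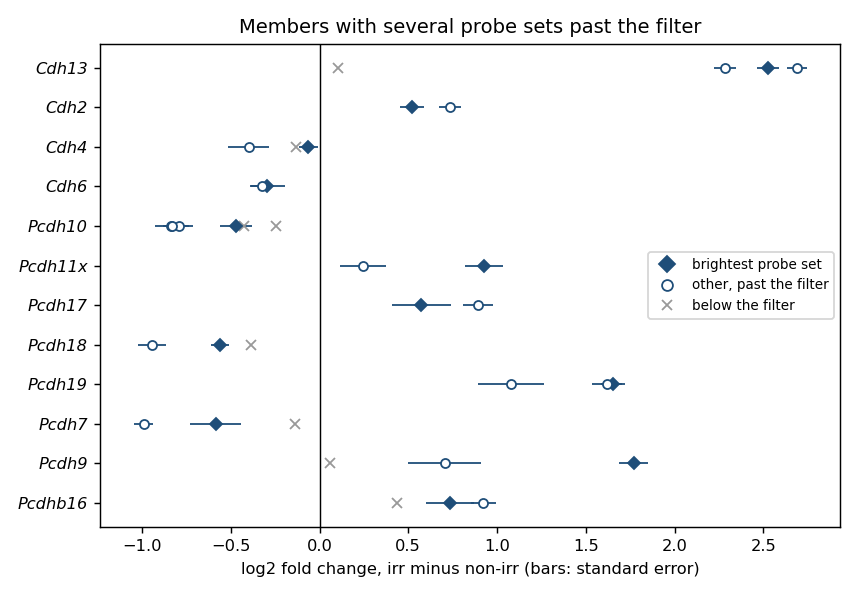
Log2 difference of irr minus non-irr NSCs (horizontal axis) for each probe set of the 12 members with several probe sets past the filter, with diamonds for the brightest, open circles for others past the filter and crosses for those below it, and bars for the standard error. Past the filter, the probe sets of a gene lie on the same side of 0 but differ in size, as for Pcdh9 with 1.77 and 0.71.

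The 250 bases before the annotated start were read for 4 delta protocadherins, the 2 that rose most and the 2 of delta-2 type that fell, so that the starts of genes with opposite changes can be set side by side. They come from RefSeq on GRCm38.p6, which has such a window for 20 of the 56 members (6 called higher, 4 lower). Capitals mark CCAAT, a common promoter element, or ATTGG, its reverse complement. These are Pcdh9 (chr14:93890680-93890929, minus strand), Pcdh19 (chrX:133688994-133689243, minus strand), Pcdh10 (chr3:45378148-45378397, plus strand) and Pcdh18 (chr3:49757317-49757566, minus strand).
Pcdh9: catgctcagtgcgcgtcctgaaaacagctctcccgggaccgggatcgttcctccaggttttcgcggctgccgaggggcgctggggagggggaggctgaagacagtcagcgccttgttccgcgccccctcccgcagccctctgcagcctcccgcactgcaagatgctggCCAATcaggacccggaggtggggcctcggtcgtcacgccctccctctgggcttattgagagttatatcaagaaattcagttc
Pcdh19: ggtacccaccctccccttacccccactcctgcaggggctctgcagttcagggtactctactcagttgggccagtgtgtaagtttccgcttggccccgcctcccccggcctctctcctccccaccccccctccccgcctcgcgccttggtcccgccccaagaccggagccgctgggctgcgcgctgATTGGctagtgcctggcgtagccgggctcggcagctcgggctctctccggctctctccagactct
Pcdh10: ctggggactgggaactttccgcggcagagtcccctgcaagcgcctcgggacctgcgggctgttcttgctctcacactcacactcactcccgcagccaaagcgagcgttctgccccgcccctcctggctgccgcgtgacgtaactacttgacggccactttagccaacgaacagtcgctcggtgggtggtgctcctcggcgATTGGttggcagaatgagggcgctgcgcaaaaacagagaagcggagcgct
Pcdh18: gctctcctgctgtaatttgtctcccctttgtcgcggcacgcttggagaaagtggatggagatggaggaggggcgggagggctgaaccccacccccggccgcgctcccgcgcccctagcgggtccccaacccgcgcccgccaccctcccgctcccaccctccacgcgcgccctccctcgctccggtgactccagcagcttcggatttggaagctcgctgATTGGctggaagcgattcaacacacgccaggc

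Each of the 4 windows holds CCAAT or its reverse complement 1 time, whether the gene rose or fell. The window of Pcdh7, the delta-1 member that fell, is not printed and holds no CCAAT on either strand. The element was chosen after the windows had been read. It is in 14 of the 20 members with a window and in 33.8% of the 32851 windows of the table, on either strand. The GC box GGGCGG, on either strand, is in the windows of Pcdh19, Pcdh10 and Pcdh18 and not in those of Pcdh9 and Pcdh7, and in 32.7% of all windows. The dinucleotide CG occurs 18 times in the window of Pcdh9, 16 in Pcdh19, 22 in Pcdh10 and 23 in Pcdh18, against a median of 6 over all windows. It occurs 7 times in that of Pcdh7, so that these counts hold for the windows chosen. TATAAA, in 12.4% of all windows, and CAGGTG, the E-box of Snail and ZEB repressors, in 17.2%, are in none of the 4 windows on either strand. Such matches describe letters and not use of a site.

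Proteins that work with cadherins and protocadherins were counted from lists of known genes, beside 40.2% higher and 37.1% lower among all genes tested. Of 10 proteases that cut or mature cadherins, 6 were higher and 1 lower. Adam19 was lower by -0.83, Furin, which removes the cadherin prodomain, was higher by 0.78, and Psen2 of the gamma-secretase by 0.78, although a plain probe set of Psen2 went the other way at -0.17. Of 10 genes listed under endocytosis and turnover 8 were higher and 2 lower, and the 2 include Ctnnbip1, which is not an endocytosis gene. The clathrin adaptor Dab2 rose by 1.21, the early endosome GTPase Rab5a rose by 0.93, and Ctnnbip1, an inhibitor of beta-catenin, was lower by -0.91, but by -0.60 as the mean of its probe sets and by -0.30 with plain probe sets only. Of 10 tested nectins and other junction proteins 2 were higher and 2 lower. Magi3 (0.90), Magi1 (-0.75) and Plekha7 (-0.66) changed most, but the means over all their probe sets were 0.15 for Magi3, -0.40 for Magi1 and -0.08, not called, for Plekha7.

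Of 14 tested partners of protocadherins, among them the WAVE complex that several delta protocadherins bind, 6 were higher and 4 lower, with Cyfip2 at 0.75, Nckap1 at 0.55 and Wasf1 at -0.57. With the mean of all probe sets, and likewise with plain probe sets only, 3 partners were higher and 4 lower. Of 12 regulators of clustered protocadherin promoters 3 were higher and 7 lower. Ctcf, whose binding loops these promoters to their enhancers, was lower by -0.97 (SE 0.18), and by -0.63 as the mean of its probe sets. The DNA methyltransferase Dnmt3b was below the filter on all irr arrays and at least 1.77-fold lower, and the cohesin subunit Stag2 was higher by 0.74. Of 7 tested repressors of cadherins 3 were higher and 1 lower. Snai2 was below the filter in non-irr NSCs and at least 1.72-fold higher, Tcf4 rose by 0.63 and Tcf3 was lower by -0.56. The probe set of Snai2 is of a kind that may read related transcripts as well.

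Cadherins outside the rule were also looked at, from a list of 24 with 10 tested. Of these, 5 were higher and 0 lower (by limma, and likewise 5 and 0 at an unadjusted p under 0.05). Among all genes tested 40.2% were higher and 37.1% lower. Fat4 (1.65) and Dchs1 (1.47), which bind each other between cells, both rose. Ret, a receptor with cadherin-like repeats, was below the filter in all non-irr arrays and at least 32.9-fold higher in irr NSCs on its brightest probe set. Its fitted difference was 6.86 on that probe set and 4.49 as the mean of its probe sets. The remaining 2 that rose were Fat1 (1.05) and Clstn1 (0.95). Celsr1, Celsr2, Fat3 and Clstn3 were not called, with values from -0.06 to 0.04, nor was Cdhr3 near the filter, and 12 genes, among them all measured desmogleins and desmocollins, were below the filter.

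Markers of cell types were read on the same arrays, since expression of cadherins differs between cell types, and their counts stand against the same 40.2% higher and 37.1% lower of all genes tested. A summed level is the log2 of the summed intensities of all measured genes of a list. The brightest probe sets weigh most in it, and it does not measure the share of a cell type. Aldoc, Map2 and Cnp are the brightest of the measured astrocyte, neuronal and oligodendrocyte markers. Of 10 tested markers of neural stem cells 4 were higher and 2 lower, and the summed level of the list was 15.75 to 15.80 in non-irr and 15.88 to 15.97 in irr NSCs. Of 7 tested astrocyte markers 5 were higher and 2 lower, with a summed level of 13.58 to 13.66 and 13.64 to 13.73. Aldoc, at 13.44 in non-irr and 12.71 in irr NSCs, weighs most in this sum, which therefore hides larger changes of less bright markers. Aqp4 was below the filter in non-irr NSCs and at least 26.1-fold higher, Agt rose by 3.61 and Slc1a2 by 2.74, while Aldoc was lower by -0.73 and Gfap by -0.18. Gfap stood at the filter, at 6.798 in non-irr and 6.615 in irr NSCs, so that its difference is of uncertain size. Of 6 tested mesenchymal markers 5 were higher and 0 lower (0 lower also at an unadjusted p under 0.05 from limma), with a summed level of 11.41 to 11.48 and 12.75 to 12.85. Col3a1 rose by 1.54, Prrx1 by 1.72 and Thy1 by 1.95, and Lum and Dcn were below the filter in non-irr NSCs and at least 2.98-fold and 1.06-fold higher. Twist1 was not called, and Col1a1, Col1a2 and Pdgfrb were below the filter on all arrays.

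Of 6 tested neuronal markers 1 was higher and 4 lower, with a summed level of 12.95 to 13.13 and 13.01 to 13.10. Of the endothelial markers 2 were tested and both were lower (8.75 to 8.92 against 8.64 to 8.73), and Pecam1 and Cldn5 were below the filter. Of the microglial markers 1 of 2 was higher, Cd68, a lysosomal protein, with a summed level of 8.01 to 8.20 and 8.81 to 9.09, and Ptprc and Aif1 were below the filter. The 3 tested markers of oligodendrocytes (12.89 to 13.01 against 12.69 to 12.94), the 2 of epithelium (8.95 to 9.19 against 8.94 to 9.06) and the 3 of pluripotent cells (8.76 to 8.91 against 8.74 to 8.82) were not called by limma, and at an unadjusted p under 0.05 0, 1 and 1 of them were lower and 0 higher. Of 7 reference genes 2 were higher and 3 lower. The part of these markers in the differences of cadherins and protocadherins was not tested.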

How the data were processed

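RNA of 4 non-irr and 4 irr NSC cultures was hybridised to Affymetrix mouse arrays with 45101 probe sets. Intensities and detection calls were obtained by the authors in GCOS, followed by RMA normalization in R with Bioconductor packages (the versions of GCOS and of the RMA package are not given in the sources used here), and the deposited log2 values were used as they are (2.48 to 14.98). Detection calls were not used. No depth applies to arrays, and their number limits the precision. Groups were taken from the labels.

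Symbols came from the platform annotation, updated by Entrez number for 34754 probe sets; 34958 carry 1 symbol, 932 several and 9211 none. The 64 control probe sets were left out. The 21919 probe sets over an intensity of 100 on at least 1 array were tested with limma 3.58.1 in R 4.3.3, two-sided, with Benjamini-Hochberg adjustment over all of them, at an adjusted p of 0.05. Counts over genes use the brightest probe set. Counts of lists stand beside those of all genes, and no set test was run. The fit recovered 197 of 200 probe sets changed by 1 or 2 log2 units in simulated data of 21919, with 11 unchanged ones called. Smaller changes and noise shared between arrays were not simulated, so that this does not show how reliable calls of smaller changes are. The members and 18 lists were chosen with earlier results of these data known. Members past the filter were named, with the values of each array for members changed at least 2-fold and for the brightest of each class. A few further members were given array by array where a call turned on 1 array, and Pcdh10 and Pcdh18 as those whose starts are shown. Of partner lists the 3 called genes with the largest change and all catenins were named, and markers, Fat1, Clstn1 and unchanged relatives as examples. Alternatives were other filters, centring on the array median or on 7 reference genes, further quantile normalization, trend and robust settings, array weights, a replicate block, arrays left out, the mean of all probe sets, plain identifiers only, and a 2-fold threshold. Promoter windows came from RefSeq. Figures were drawn with matplotlib 3.10.9.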

Additional observations from a re-analysis of the deposited data

Results flagged for a closer look

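In 2 of the 64 groups of 4 arrays examined (32 tested members in each group), 1 array stood apart from the other 3 by Dixon's criterion, which chance passes in about 1 of 20 groups. Pcdhb5 was at 6.27 in non-irr replicate 4 and at 5.91 to 5.96 in the other non-irr arrays, a gap of 0.869 of the range and all of it below the filter. Pcdhb22 was at 7.54 in non-irr replicate 2 and at 7.41 to 7.42 in the others, a gap of 0.915 of the range. Of the 32 tested members, 13 had irr replicates 1 and 2 both above 3 and 4 and 4 had them both below, against 15.8% and 38.2% of all genes tested.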

How the results depend on the processing

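Of the 27 called members, 24 kept their call at an adjusted p of 0.05 under each alternative that gave a value, the 2-fold threshold aside, and none changed direction. Cdh3, Cdh6 and Cdh20 lost it under at least 1, and Cdh20 under further quantile normalization too (0.16, limma adjusted p = 0.074). The number of cadherins called lower, 2, fell to 1 without the filter, under a filter of 100 on 4 arrays or of 200 on any array, and with trend and robust settings, and to 0 with centring on reference genes, without irr replicates 3 and 4, without irr replicates 1 and 2, and at 2-fold. Leaving out each array in turn gave 0 to 1 cadherins lower. At 2-fold, 1 cadherin and 7 protocadherins were higher and 0 protocadherins lower. The number of protocadherins called higher, 18, was 21 without the filter, 16 under a filter of 100 on 4 arrays and 12 under a filter of 200 on any array. With the mean of all probe sets, and likewise with plain identifiers only, that number was 16. Centring on reference genes made Cdh15 a called gene (0.20, limma adjusted p = 0.0052) and took the share of higher among called genes from 52.0% to 63.2% and among called members from 81.5% to 88.5%. Pcdhb21 was called lower without irr replicates 1 and 2 (-0.28, limma adjusted p = 0.034). Psen2 turned direction with plain probe sets (-0.17). Arvcf lost its call under 14 alternatives. Whether replicate numbers pair the arrays stayed unclear. Same-numbered arrays correlated at 0.04, 0.38, -0.21 and 0.51 for replicates 1 to 4, and were each other's best match for replicates 2 and 4 only. A fit with a replicate block left 4 cadherins higher, 2 lower, 18 protocadherins higher and 3 lower. The cause of these changes was not tested. Values near an intensity of 100 limit the size of a difference.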
